A study of Mus musculus with 4 samples.

Results

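Microtubules are hollow filaments built from heterodimers of 1 alpha and 1 beta tubulin protein, and mammals encode several isotypes of either protein in separate genes. Cells sense unassembled tubulin dimers and degrade tubulin mRNAs while these are being translated, through a factor that recognises the first residues of the nascent chain, so the amount of tubulin mRNA is controlled during its translation. In lung epithelium microtubules carry vesicles, form the mitotic spindle and make up the core of cilia.

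The 8 genes described here are 3 alpha tubulins (Tuba1a, Tuba1b and Tuba1c) and 5 beta tubulins (Tubb5, Tubb4b, Tubb2a, Tubb2b and Tubb6), picked by a list of gene IDs from the 53465 IDs of the count table. Their IDs are ENSMUSG00000072235, ENSMUSG00000023004 and ENSMUSG00000043091 for Tuba1a, Tuba1b and Tuba1c. Those of Tubb5, Tubb4b, Tubb2a, Tubb2b and Tubb6 are ENSMUSG00000001525, ENSMUSG00000036752, ENSMUSG00000058672, ENSMUSG00000045136 and ENSMUSG00000001473. Ribosome footprints, the RNA fragments that ribosomes shield from nuclease, were sequenced from MLE-12, a mouse lung epithelial line that carries SV40 large T antigen and often stands in for alveolar type 2 cells. The 2 control libraries (replicates 1 and 2) came from cells without the compound. The 2 treated libraries (replicates 2 and 3) came from cells exposed for 12 h to 5 µM 1-nitropyrene, a nitro-substituted polycyclic hydrocarbon found in diesel exhaust. All 4 were washed with cycloheximide, which holds ribosomes on mRNA. MLE-12 is 1 immortalised line, and the labels do not tell whether libraries of the same group are separate cultures. The p-values therefore rest on the spread between these libraries alone, which may be technical. In the main edgeR fit that spread was pooled over genes. The edgeR p-values, standard errors and fold change intervals of a tubulin thus do not measure that gene's own spread between libraries. With no RNA libraries analysed here, a footprint level cannot be divided into the amount of mRNA and the ribosomes on each mRNA.

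Library totals ranged from 1136145 to 1357034 counts, of which 29.7% to 33.0% fell on the 2 most counted IDs. No library was a copy of another, since counts differed within groups beyond sampling noise (chi-square per degree of freedom 1.55 between controls and 1.61 between treated libraries, against 5.82 to 6.02 across groups). The table pairs no names with its IDs and the gene table used here ties 0 IDs to symbols. Markers of alveolar type 2 or other cell types, tubulin folding factors and other microtubule genes were therefore not analysed here.

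The counts of the family were assigned almost wholly to 3 beta tubulins. Of the 8956 counts on the 8 genes in the 4 libraries together, 5387 lay on Tubb5, 3074 on Tubb6 and 440 on Tubb4b. The 3 alpha tubulins together had 55 counts, or 0.614%, and Tubb2a and Tubb2b had 0. Over the whole table Tubb5 ranked 56th by total count, Tubb6 154th and Tubb4b 1651st, while Tuba1c, the most counted alpha tubulin, ranked 8071st. These are counts per gene, not divided by transcript length, and how fragments that match several genes were counted is not given. The order therefore describes the table and not the relative synthesis of the proteins.

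Alpha and beta tubulin proteins enter microtubules in equal amounts, a measure unlike footprint counts on the listed genes alone. The alpha share of the 8 genes' counts was 0.652% and 0.509% in control. It was 0.588% and 0.700% in the treated libraries. The exact Clopper-Pearson 95% intervals of the 4 libraries reached from 0.255% to 1.13% at their widest, and they cover counting error only. The alpha share was thus low in all 4 libraries, and a shift between groups was not detectable at these counts.

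The genes at or near 0 are those that have another of the 8 genes on the same chromosome. Positions are those of RefSeq on assembly GRCm38.p6. Tuba1b (chromosome 15, 98931429 to 98934390), Tuba1a (98949847 to 98953501) and Tuba1c (99029891 to 99038105) lie in a row, with gaps of 15.5 and 76.4 kb that hold 0 annotated protein-coding genes lying wholly within them. Tubb2a (chromosome 13, 34074278 to 34078008) and Tubb2b (34127008 to 34130354) are 49.0 kb apart, again with 0 such genes between them. Tubb5 (chromosome 17, 35833920 to 35838301), Tubb4b (chromosome 2, 25222158 to 25224702) and Tubb6 (chromosome 18), which hold nearly all counts, each stand without another of the 8 genes on their chromosome. Position does not show whether a fragment matches several genes. The tubulin genes are similar in sequence, but their sequences were not compared here. How fragments that match several genes were counted is not given in the sources used here, so the levels of all 8 genes are uncertain, and the part of shared sequence in these low counts was not tested.

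**Figure D1:**
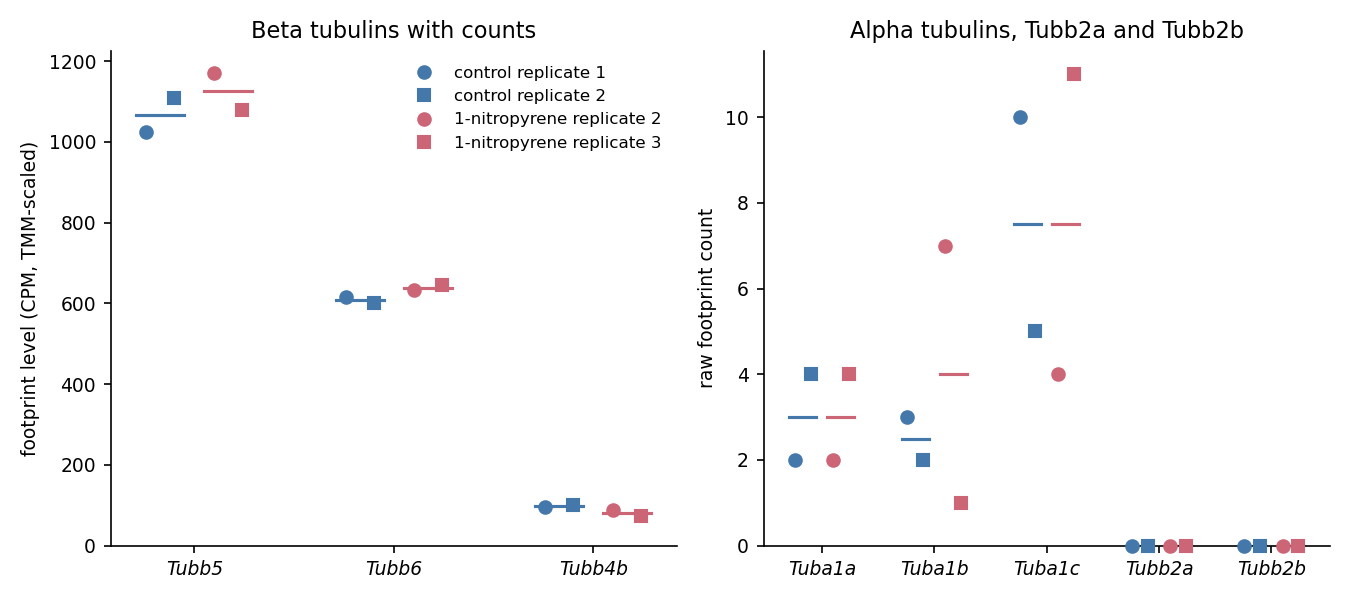
Footprint levels of the 8 tubulin genes in each library. Left, TMM-scaled CPM for the beta tubulins with counts; right, raw counts for the other 5 genes, on a far smaller scale; points are libraries (blue control, red 1-nitropyrene) and short lines are group means. Tubb5 lies between 1025 and 1171 CPM and Tubb6 between 602 and 645 CPM, whereas no gene in the right panel exceeds 11 counts.

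None of the tubulins that could be tested passed the test of 1-nitropyrene against control cells. The 3 genes that passed the filter on low counts were Tubb5, Tubb6 and Tubb4b, and 0 of the 3 were called (adjusted p under 0.05 by edgeR's quasi-likelihood test, Benjamini-Hochberg over 7719 genes); at an unadjusted p under 0.05 the count was also 0. Of all genes tested, 17.3% were called, 9.68% higher and 7.58% lower. DESeq2 and limma-voom called 0 of the 3 as well. The unadjusted result depended on the scaling for Tubb4b. Its unadjusted edgeR p was 0.0107 with total counts and 0.0292 with total counts without the 2 most counted IDs. Tubb5 and Tubb6 stayed above 0.05 under both.

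Tubb5 encodes the beta tubulin most widely expressed in dividing cells. It had 1347 and 1315 counts in control and 1361 and 1364 in treated libraries. Scaled, these were 1025 and 1109 CPM (counts scaled by TMM to a library of 1e6) against 1171 and 1080 CPM. The groups overlapped, with the lowest level in control replicate 1 and the highest in 1-nitropyrene replicate 2. The mean was 1067 ± 60.0 CPM in control and 1126 ± 64.2 CPM in treated cells (SD, n = 2 each), a log2 fold change of 0.078 ± 0.050 SE (edgeR adjusted p = 0.294). The 95% interval of the change ran from 0.986-fold to 1.13-fold, the narrowest of the family, as this gene has the most counts.

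Tubb6 encodes a divergent beta isotype known to make microtubule arrays less stable when raised. Its counts were 811 and 714 in control and 735 and 814 in treated cells, or 617 and 602 CPM against 632 and 645 CPM. Both treated libraries lay above both controls on this scale. The means were 610 ± 10.2 and 639 ± 8.69 CPM (SD, n = 2 each), a log2 fold change of 0.067 ± 0.065 SE (edgeR adjusted p = 0.528) with a 95% interval from 0.959-fold to 1.14-fold. The order of the libraries turned with the scaling. As a share of all counts Tubb6 held 0.0643% and 0.0628% in control and 0.0591% and 0.0600% in treated libraries, so that the treated libraries were then the lower pair.

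Tubb4b encodes a broadly expressed beta isotype that is also a main tubulin of motile cilia. It was the gene of the 3 with the lower level in treated cells, with 127 and 119 counts against 102 and 92. These were 96.6 and 100 CPM in control and 87.8 and 72.9 CPM in treated libraries, and the groups did not overlap. The means were 98.5 ± 2.69 and 80.3 ± 10.5 CPM (SD, n = 2 each), which gave a log2 fold change of -0.30 ± 0.18 SE (edgeR adjusted p = 0.255). The 95% interval reached from 0.639-fold to 1.04-fold, so a loss of about that size is not excluded at this depth. Without 1-nitropyrene replicate 3, the library with the lowest level, the log2 fold change was -0.16, and without 1-nitropyrene replicate 2 it was -0.42.

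The groups thus did not overlap in 2 of the 3 tested tubulins, against 57.3% of all genes tested. Among the genes of like level described below, within 1.5 times that of each tubulin, the share was higher. It was 88.2% around Tubb5, 80.1% around Tubb6 and 62.8% around Tubb4b, so groups that do not overlap were common at these levels. Permuting 2 libraries against 2 gives an exact two-sided p of 0.333 at the least.

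**Figure D2:**
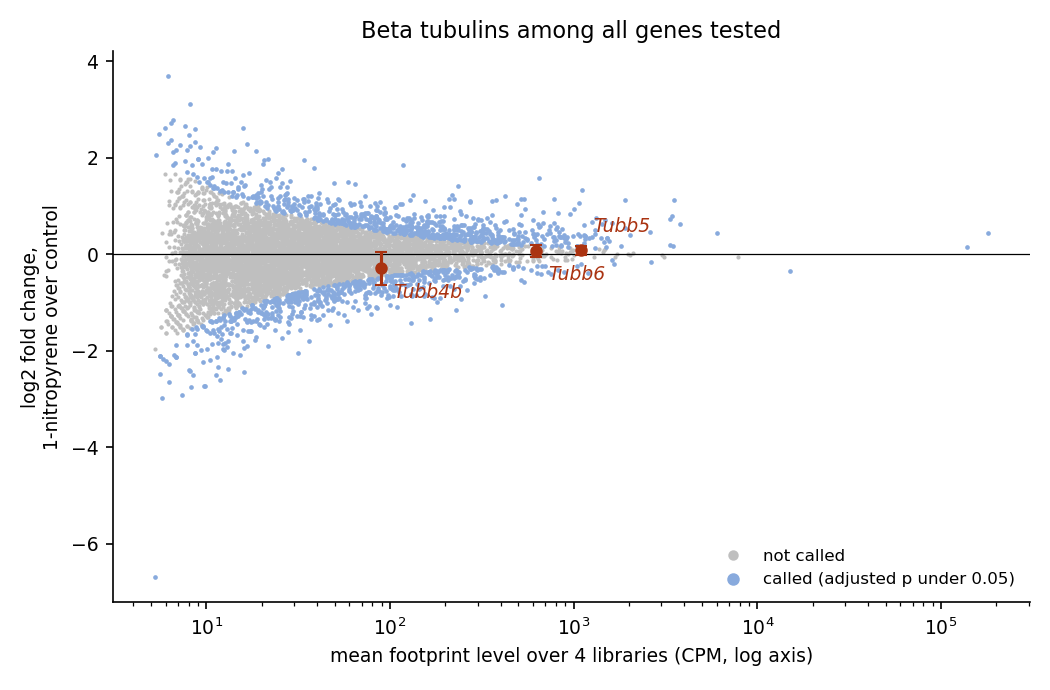
Log2 fold change of 1-nitropyrene over control against mean footprint level (CPM, log axis) for the 7719 genes tested. Grey points were not called, blue points were called at an adjusted p under 0.05 (edgeR), and red points with 95% intervals are the tested tubulins. Tubb5 and Tubb6 lie close to 0, at 0.078 and 0.067, and Tubb4b at -0.30 lies below 0 among genes that were not called.

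Genes of like level were set beside each tubulin, a description added after the values were seen. Of the 93 other genes with a mean level within 1.5 times that of Tubb5, 71.0% were called, 63.4% higher and 7.53% lower. Their median log2 fold change was 0.26, against 0.078 for Tubb5, and 27 of the 93 lay below Tubb5. Of the 186 genes around Tubb6, 57.0% were called, their median log2 fold change was 0.16 and 71 lay below the 0.067 of Tubb6. Tubb5 and Tubb6 thus stood below the median of genes of their level, most of which were called at this depth. Around Tubb4b, 22.9% of 1221 genes were called, their median was 0.0091 and 256 lay below the -0.30 of Tubb4b. With total counts, 43 genes around Tubb5 were called higher and 19 lower, against 59 and 7 with TMM.

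The changes of the 3 tested tubulins were compared with each other in 3 pairs. Tubb5 and Tubb6 differed by 0.01 in log2 fold change, with a 95% interval from -0.15 to 0.17. Tubb5 exceeded Tubb4b by 0.37 (95% interval 0.011 to 0.74), and Tubb4b minus Tubb6 was -0.36 (-0.74 to 0.0085). Widened for the 3 pairs by Bonferroni, the interval of the larger difference ran from -0.069 to 0.82. A change of Tubb4b apart from the others was therefore not shown, and the interval bounds how far Tubb5 and Tubb6 could differ. These intervals take the estimates of a pair as independent.

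Within the beta tubulin counts, a ratio that does not depend on the scaling of libraries, Tubb5 held 58.9% and 61.2% in control and 61.9% and 60.1% in treated libraries. Tubb6 held 35.5% and 33.2%, against 33.4% and 35.9%. For both genes the groups overlapped. Tubb4b held 5.56% and 5.54% in control (intervals 4.65% to 6.58% and 4.61% to 6.59%) and 4.64% and 4.05% in treated libraries (3.80% to 5.61% and 3.28% to 4.95%). Its treated shares were the lower pair, while the intervals of the libraries overlapped across groups. These intervals cover counting error in single libraries, so their overlap is no test of a difference between groups.

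**Figure D3:**
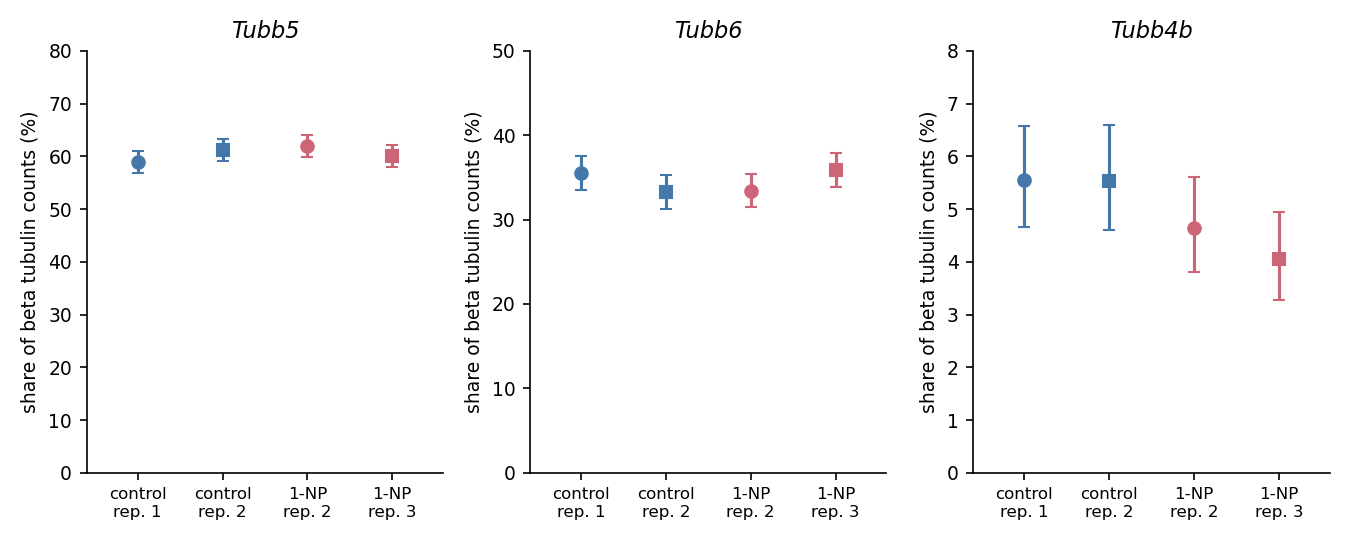
Share of the beta tubulin counts held by Tubb5, Tubb6 and Tubb4b in each library, in percent on axes that start at 0 and differ in height. Bars are exact Clopper-Pearson 95% intervals for counting error (blue control, red 1-nitropyrene; 1-NP is 1-nitropyrene). Tubb5 and Tubb6 overlap between groups, and Tubb4b is at 5.56% and 5.54% in control and 4.64% and 4.05% in treated libraries.

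The 3 alpha tubulins stood at counts too low for a comparison. Tuba1a, the main alpha tubulin of young neurons, had 2 and 4 counts in control and 2 and 4 in treated libraries. Tuba1b, a widely expressed alpha tubulin, had 3 and 2 against 7 and 1. Tuba1c, also expressed in many tissues, had 10 and 5 against 4 and 11. The groups overlapped for each of them, and the spread within a group was as large as any difference between groups.

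For a counting interval the libraries of a group were pooled, so it leaves out the spread between them. The ratio of treated to control counts, scaled by the TMM library sizes, was 1.03 for Tuba1a with an exact 95% counting interval from 0.276 to 3.86. For Tuba1b it was 1.65 (0.476 to 6.41) and for Tuba1c 1.03 (0.470 to 2.26). A change of several fold in Tuba1a or Tuba1b was therefore not detectable at these counts. Tubb2a and Tubb2b, known best from neurons, had 0 counts in every library, which leaves room for a counted level of up to 3 counts, or 2.28 to 2.58 CPM by library. That limit covers counting error only, and it sets no limit on footprints that matched several genes if such fragments were left out of the count. No fold is given for them.

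A sum over members removes the effect of counts assigned to another member of the same sum. It does not recover fragments left out of the count or assigned to other genes, if there were such fragments. Summed in this way, the beta tubulins stood at 1738 and 1812 CPM in control and 1891 and 1798 CPM in treated libraries. The groups overlapped, with means of 1775 ± 52.5 and 1845 ± 66.0 CPM (SD, n = 2 each), a ratio of 1.04. The alpha sum was 11.4 and 9.28 CPM in control against 11.2 and 12.7 CPM in treated libraries, from 11 to 16 counts per library, and overlapped too. All 8 genes together took 0.186% ± 0.0054 of the counts in control and 0.173% ± 0.0066 in treated cells (SD, n = 2 each). The treated mean was thus above the control mean after TMM scaling and below it as a percentage of the library.

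The sign of the small changes in Tubb5 and Tubb6 depended on that scaling. Scaling to total counts moved the median log2 fold change of all genes tested from -0.0076 to -0.17. It gave Tubb5 -0.084 and Tubb6 -0.094, with edgeR adjusted p of 0.224 and 0.314. A rescaling of libraries moves all genes nearly alike, so the distance from the median of all genes is fixed by construction and is no test of stability; with TMM it was 0.085 for Tubb5, 0.075 for Tubb6 and -0.29 for Tubb4b. Of the 3 genes, Tubb4b came closest to the threshold with total counts (log2 fold change -0.46, edgeR adjusted p = 0.0536).

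**Figure D4:**
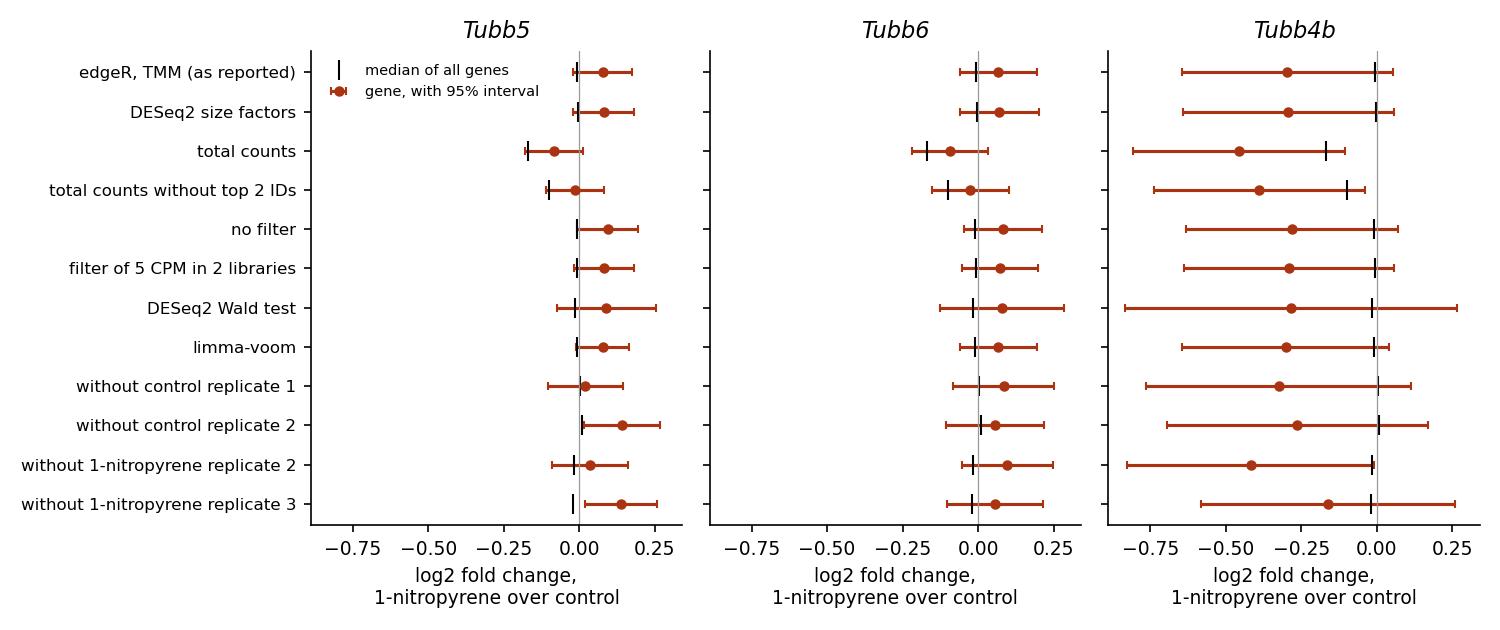
Log2 fold change of 1-nitropyrene over control for the 3 tested tubulins under each processing setting. Red points carry 95% intervals and black ticks mark the median of all genes under that setting. Tubb5 and Tubb6 move to the left with the median when libraries are scaled to total counts, and Tubb4b stays below 0 throughout.

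The 4 library levels of the summed family were also set against those of the 1793 other genes whose mean count was 100 or more. The measure of likeness was the root-mean-square difference in log2 CPM centred on each gene's mean. The nearest were ENSMUSG00000018293 (0.0082) and ENSMUSG00000002900 (0.018), for which no symbol was at hand. ENSMUSG00000018293 stood at 1380 and 1443 CPM in control and 1485 and 1430 CPM in treated libraries. With 4 libraries such a match describes a flat course and nothing further.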

How the data were processed

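The authors deposited 1 table of raw footprint counts per Ensembl gene ID, 1 column for each of the 4 libraries, with 0 other sample columns. The submitters' processing notes name featureCounts, HISAT2, Bowtie, cutadapt and DESeq2, and mm10 as the build; for their versions, roles, settings and treatment of multi-mapping reads, the sources used here give nothing. Names of the 8 tubulins came with the list of IDs; other names could not be matched, so the planned lists of pathway genes and cell type markers were not run. The members, lists and tests were chosen with earlier results of these data known, and all 8 members are named.

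Genes were kept by edgeR's filterByExpr (minimum count 10, total 15; 7719 IDs), scaled with TMM and compared without covariates by its quasi-likelihood test (edgeR 4.0.16 in R 4.3.3), which was tested on simulated counts. Standard errors were derived from the fold change and F. CPM of genes below the filter use the same scaling, by which 1 count was worth 0.761 to 0.860 CPM. Alternatives were total counts with and without the 2 most counted IDs, size factors of DESeq2, no filter, 5 CPM in 2 libraries, the DESeq2 1.42.0 Wald test, limma-voom (limma 3.58.1) and leaving out each library. The labels' replicate numbers are shared by 1 pair only, so no pairing was fitted.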

Additional observations from a re-analysis of the deposited data

How the results depend on the processing

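None of Tubb5, Tubb6 and Tubb4b was called under any of the 11 alternatives each, with adjusted p from 0.0536 (Tubb4b, edgeR with total counts) to 0.894 (Tubb5 without control replicate 1). Tubb4b kept its direction in all 11, with log2 fold changes from -0.46 to -0.16. Tubb5 and Tubb6 kept theirs in 9, and turned to -0.084 and -0.094 with total counts and to -0.015 and -0.026 with total counts without the 2 most counted IDs. The same 2 settings moved the log2 ratio of the summed beta tubulins from 0.056 to -0.11 and -0.037, and that of all 8 genes from 0.056 to -0.10 and -0.037. Fits without 1 library, in which the single sample left is taken to spread as the other group does, gave 0.020 to 0.14 for Tubb5, 0.056 to 0.096 for Tubb6 and -0.42 to -0.16 for Tubb4b. They moved the share of beta counts (treated minus control, in percentage points) of Tubb5 between -0.22 and 2.05, of Tubb6 between -0.93 and 1.49 and of Tubb4b between -1.50 and -0.91. Over all genes, the 1332 calls became 315 with the DESeq2 Wald test and 572 to 834 with a library left out; the cause was not tested. With total counts 410 genes were called higher and 1098 lower, against 747 and 585. Without a filter, edgeR tested the alpha tubulins too, with adjusted p of 0.992 for Tuba1a, 0.730 for Tuba1b and 0.984 for Tuba1c. No paired analysis was possible because number 2 is the only replicate number found in both groups. The alternatives for pathway lists were not run. The alpha tubulins had 1 to 11 counts per library and Tubb2a and Tubb2b 0; how far depth or the counting of shared fragments limits them was not tested.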
